A study of Mus musculus with 18 samples.

Results

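Het against WT neurons of the embryonic mouse forebrain were compared animal by animal in each of the main classes of neuron. Nuclei came from the forebrain at embryonic day 14 (E14) and were profiled by single-nucleus RNA-seq with combinatorial indexing, in which fixed nuclei acquire barcodes over successive rounds of pooling. The line carries S710fsX, a frameshift of Myt1l, on a C57BL/6 background. Wild-type (WT) animals carry no mutant allele, heterozygotes (Het) 1, and homozygous mutants (KO) no intact allele. There were 3 animals per genotype, each measured in 2 runs, and the labels give no treatment. Glutamatergic nuclei were taken as those with at least 2 counts of Neurod2 and Neurod6 together and none of Gad1, Gad2 or Dlx6os1. GABAergic nuclei were those with at least 2 counts of Gad1, Gad2 and Dlx6os1 together and none of Neurod2 or Neurod6. So the nuclei were selected on their measured counts of these 5 marker genes, which are given no test. Counts were summed per animal and class over both runs, and Het was compared with WT across the 6 sums of a class, with the replicate number as a block. This gave 20384 glutamatergic and 37415 GABAergic nuclei, 15.2% and 27.8% of the 134483 WT and Het nuclei that passed the limits on UMIs (unique molecules), genes and mitochondrial counts. All 9 animals together had 201913 such nuclei.

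MYT1L is a zinc finger protein of the MYT1 family that appears as neurons leave the cell cycle. It binds a short DNA core, recruits corepressor complexes and helps to hold non-neuronal and progenitor programmes off, and it belongs to the mix of factors that turns fibroblasts into neurons. At this age the dorsal forebrain makes glutamatergic neurons of the cortex, which migrate radially, whereas the ventral forebrain makes GABAergic neurons of the striatum and interneurons that migrate into the cortex.

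The AAGTT core that MYT1 family proteins bind was looked for on both strands in RefSeq promoter windows of the assembly GRCm38.p6, from 250 bases before to 50 after each start. The windows shown belong to the mutated gene itself and to called genes described further on, each 5′ to 3′ on the gene's strand, with AAGTT or its reverse complement AACTT in capitals.
Myt1l (chr12:29528134-29528433, + strand): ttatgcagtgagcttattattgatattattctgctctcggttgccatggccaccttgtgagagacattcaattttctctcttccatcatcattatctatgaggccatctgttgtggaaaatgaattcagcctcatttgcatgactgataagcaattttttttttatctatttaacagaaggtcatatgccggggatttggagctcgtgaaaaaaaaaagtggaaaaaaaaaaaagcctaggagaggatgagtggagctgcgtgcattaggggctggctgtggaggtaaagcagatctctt
Mdga2 (chr12:67222500-67222799, - strand): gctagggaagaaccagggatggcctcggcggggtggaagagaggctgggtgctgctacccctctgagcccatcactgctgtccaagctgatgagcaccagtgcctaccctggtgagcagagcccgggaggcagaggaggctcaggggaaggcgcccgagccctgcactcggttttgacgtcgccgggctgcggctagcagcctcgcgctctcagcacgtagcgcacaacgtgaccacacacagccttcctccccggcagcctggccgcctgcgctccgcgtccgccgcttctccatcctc
Phf21a (chr2:92185233-92185532, + strand): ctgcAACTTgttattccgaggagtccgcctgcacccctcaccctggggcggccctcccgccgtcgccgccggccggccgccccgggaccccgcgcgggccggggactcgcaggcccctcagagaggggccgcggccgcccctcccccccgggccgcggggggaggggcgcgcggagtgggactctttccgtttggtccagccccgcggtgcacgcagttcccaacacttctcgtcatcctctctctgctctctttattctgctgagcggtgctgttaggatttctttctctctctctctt
Mef2c (chr13:83503784-83504083, + strand): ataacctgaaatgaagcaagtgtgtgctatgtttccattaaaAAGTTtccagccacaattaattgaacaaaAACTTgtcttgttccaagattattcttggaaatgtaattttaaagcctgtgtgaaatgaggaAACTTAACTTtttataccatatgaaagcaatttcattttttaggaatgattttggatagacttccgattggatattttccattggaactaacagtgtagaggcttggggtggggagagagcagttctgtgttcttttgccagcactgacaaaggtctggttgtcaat
A single window of each gene is shown, out of 5 in the table for Myt1l, 1 for Mdga2, 2 for Phf21a and 3 for Mef2c. The windows shown of Myt1l and Mdga2 held no match, that of Phf21a 1 and that of Mef2c 4. Of all 32851 windows 39.32% held the core at least once. Of the 31 genes called in glutamatergic sums 20 were in the promoter table, and 11 of their 29 windows (37.93%) held it. For the genes higher in Het these were 5 of 12 windows (41.67%), and for the genes lower in Het 6 of 17 (35.29%). These are matches of letters only, and no binding was measured in these samples.

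The groups had limits as a model. The methods state that embryos came from several litters and were of mixed sex, but the labels do not tie replicate numbers to litters. WT 3 was the only one of the 6 animals with Xist, the X-inactivation RNA, well above 0 (423 CPM in GABAergic sums, at most 1.05 CPM in the others), and with Y-linked Eif2s3y near 0 (0.891 CPM against 150 to 178 CPM). CPM are counts of a gene per 1000000 counts of that animal and class. Groups follow the titles, since the genotype field of every run 1 library, 9 in all, says WT whatever the title. The frameshift leaves a transcript that can be counted, so Myt1l RNA does not check the genotype labels. The libraries held 261143 barcodes, counted library by library. Counted once each, 3429 barcodes occurred in libraries of different animals, 972 of them within a run, and 311 only in both runs of 1 animal.

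The classes carried the markers of their names among genes that the rule did not use. In the glutamatergic sums Tbr1, a factor of deep-layer neurons, stood at 117 to 155 CPM against 12.4 to 14.9 CPM in the GABAergic sums. Slc17a6, the vesicular glutamate transporter VGLUT2, stood at 211 to 265 CPM against 9.93 to 26.2 CPM. In the GABAergic sums Lhx6, a factor of medial ganglionic eminence interneurons, stood at 171 to 203 CPM against 2.36 to 3.57 CPM. Isl1 of striatal neurons was at 96.0 to 129 CPM against 1.14 to 3.02 CPM, and Slc32a1, the vesicular GABA transporter, at 39.4 to 60.7 CPM against 1.09 to 4.54 CPM. Bcl11b, which striatal and deep-layer cortical neurons both express, was at 729 to 804 and 664 to 928 CPM. The proliferation gene Mki67 was present in both classes, at 81.4 to 111 CPM and 190 to 297 CPM.

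Of all nuclei kept, 9575 (7.12%) sat just inside the glutamatergic gate at 2 counts, out of 20384 in the class. Another 16307 (12.1%) lay just outside it at 1 count. The corresponding GABAergic numbers were 3633 (2.70%), out of 37415 in the class, and 6020 (4.48%). Nuclei with counts of both kinds numbered 7479 (5.56%) and were in neither class. Doublets of the 2 kinds of neuron are removed by this only where counts of both kinds were detected. No doublet caller was run. Per animal, 2662 to 4418 glutamatergic nuclei gave 7956560 to 15262200 counts, and 5218 to 7675 GABAergic nuclei gave 15186200 to 20990300 counts. Because a class sums many subtypes, a change in the mix of subtypes and a change within each nucleus cannot be told apart.

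Glutamatergic neurons of Het animals showed few and mostly small changes. Of 17418 genes tested, 31 (0.178%) passed edgeR's adjusted p under 0.05 with a log2 fold change beyond 0.2 in size, hereafter called. In Het, 11 genes were higher (0.0632%) and 20 lower (0.115%). In nuclei that also lacked counts of the progenitor and cycling genes Eomes, Neurog2, Hes5, Sox2, Mki67 and Top2a, an alternative chosen after seeing the data, 25 genes were called, 15 higher and 10 lower, and with a gate of at least 3 counts 26 genes, 13 higher and 13 lower. Of the 31 genes, 29 could be tested in nuclei without progenitor counts, all with the same direction, and 16 were called, whereas Grm5 (edgeR adjusted p = 0.0927) and Grin3a (0.201) were among those not called. The genes that fell included Mdga2, Sybu, Rgs6, Mef2c and the glutamate receptor genes Grm5 and Grin3a, and those that rose included Unc5d, Phf21a, Thsd7a and Ntng1. The median size of the called changes was 0.35 on the log2 scale, 21 of the 31 were under 0.5, and 29 moved the same way in all 3 pairs of equal replicate number, as did 5199 of all 17418 genes tested. In 15 of the 31 the Het animals did not overlap the WT animals, beside 9.25% of all genes tested, and nothing is read from either count, since both use the contrast and the pairs of the fit. Without the replicate block edgeR called 0 genes (608 at an unadjusted p under 0.05) and DESeq2 2, Sybu and Gm42418. Of the 31, 28 were tested by edgeR without the block, all with the same direction and 25 of them with an unadjusted p under 0.05. Run 1 gave 24.2% and 31.1% of the glutamatergic counts of Het 2 and Het 3, against 17.6% and 19.2% in WT 2 and WT 3. In replicate 1 it went the other way, with 20.7% in Het and 23.4% in WT. The fit has no term for run. With run 1 counts thinned to a share of 17.6% in every animal, an alternative chosen after seeing the data that also lowers the counts, edgeR called 9 of the 31 genes and no others (2 higher and 7 lower), and all 31 kept their direction with an unadjusted p under 0.05. The 9 were Slc15a2, Gm42418, Mdga2, Sybu, Rgs6, Galntl6, 4930467D21Rik, Foxa1 and 1700025A08Rik.

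**Figure D1:**
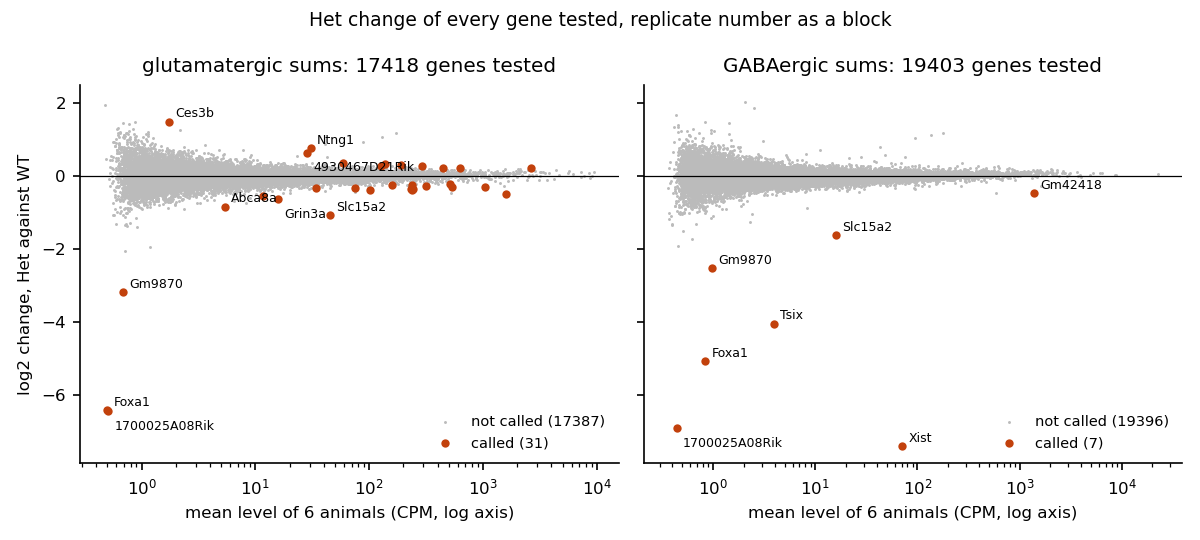
Change of each gene in Het against WT on the log2 scale (vertical axis) by its mean level over the 6 animals in CPM (horizontal log axis), for glutamatergic and GABAergic sums, with called genes in orange. In glutamatergic sums 31 of 17418 genes were called, 11 higher and 20 lower, and in GABAergic sums 7 of 19403, all lower.

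Within MYT1L's own family, Myt1l RNA in glutamatergic sums was 1803, 2049 and 1936 CPM in WT 1, 2 and 3 and 1995, 2269 and 2236 CPM in Het 1, 2 and 3. Each Het animal lay above the WT animal of its number, while the ranges overlapped. The fitted log2 fold change was 0.18 (SE 0.030, edgeR adjusted p = 0.0083), under the limit of 0.2 in size, so Myt1l was not called. In the fit that included the KO animals, KO against WT was 0.35. Here and below, the Het and KO values share the same WT animals, so a KO value is not independent of the Het value beside it. Its paralogues Myt1 and St18 had log2 fold changes of 0.15 (SE 0.054, adjusted p = 0.433) and 0.05 (SE 0.056, adjusted p = 0.872). In GABAergic sums Myt1l was 1293, 1312 and 1277 CPM in WT and 1355, 1445 and 1501 CPM in Het, with all Het animals above all WT animals, a log2 fold change of 0.17 (SE 0.038) and an adjusted p of 0.321. Myt1l spans chr12:29528384-29923213 on the + strand (GRCm38, GENCODE vM21, as are all gene positions given here).

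Mdga2 was lower in Het. It encodes a membrane-anchored adhesion protein that binds neuroligins and limits synapse formation, and it spans chr12:66466060-67222549 on the - strand. Mdga2 was at 1107, 1225 and 1133 CPM in WT 1, 2 and 3 and at 921, 915 and 932 CPM in Het 1, 2 and 3. Every Het animal was below every WT animal, and the Het animals were nearly equal. The log2 fold change was -0.31 (SE 0.037, edgeR adjusted p = 0.00037), and KO against WT was -0.50. In GABAergic sums, where Mdga2 was expressed at 859 to 1157 CPM, the value was -0.01 (SE 0.045, adjusted p = 0.993).

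Sybu encodes syntabulin, which links syntaxin-bearing vesicles to kinesin for transport along axons (chr15:44671856-44788063, - strand). Its levels were 262, 270 and 259 CPM in WT and 208, 189 and 207 CPM in Het, again without overlap. The log2 fold change was -0.37 (SE 0.049, edgeR adjusted p = 0.0012), that of KO -0.55 and that of GABAergic Sybu 0.10 (SE 0.059, adjusted p = 0.846). Rgs6, a regulator that shortens G protein signalling (chr12:82588292-83162056, + strand), was at 552, 636 and 576 CPM in WT and at 471, 471 and 477 CPM in Het. Its groups did not overlap either, and its Het animals too were nearly equal. Rgs6 had a log2 fold change of -0.30 (SE 0.043, edgeR adjusted p = 0.00297), with KO at -0.26 and GABAergic sums at 0.03 (SE 0.070).

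Glutamate receptors and their auxiliary subunits, through which these neurons will receive excitatory input, held 2 genes called lower. Grm5, the metabotropic receptor mGluR5 (chr7:87584168-88134907, + strand), was at 304, 238 and 284 CPM in WT and 196, 172 and 266 CPM in Het. Het 3 lay between the WT animals, while Het 1 and Het 2 were below all of them. Its log2 fold change was -0.38 (SE 0.067, edgeR adjusted p = 0.0183), KO against WT was -0.88, and GABAergic Grm5 was at 0.01 (SE 0.052). Grin3a, an NMDA receptor subunit (chr4:49661611-49845744, - strand), had low levels of 23.9, 13.9 and 20.2 CPM in WT and 14.8, 10.2 and 11.5 CPM in Het. Each Het animal was below the WT animal of its number, though Het 1 exceeded WT 2. Grin3a had a log2 fold change of -0.63 (SE 0.103, edgeR adjusted p = 0.00832), with -0.88 in KO and 0.12 (SE 0.086) in GABAergic sums. Of the 32 genes of this list tested, 0 were called higher and 2 called lower, beside 31 called of all 17418 genes (0.178%). Fitted changes were above 0 for 14 and below 0 for 18, with a list median of -0.02 beside -0.003 for all genes. Neto1, an auxiliary kainate receptor subunit, stood at -0.69 (SE 0.165, adjusted p = 0.102) and Grin1, the obligatory NMDA receptor subunit, at -0.35 (SE 0.090, adjusted p = 0.161), neither called.

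**Figure D2:**
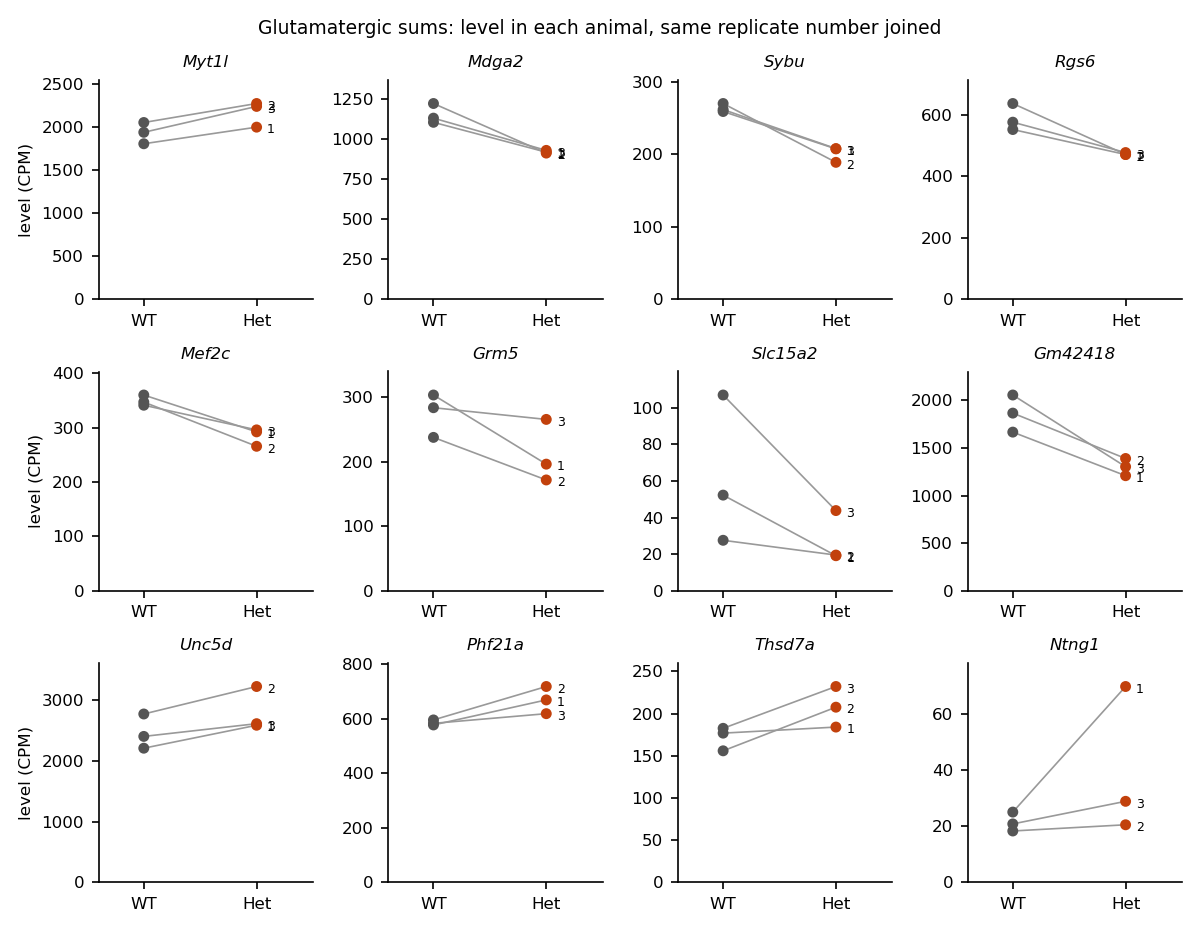
Level of 12 genes in glutamatergic sums (CPM, vertical axes from 0) in each of the 3 WT (grey) and 3 Het (orange) animals, with lines joining animals of equal replicate number. Mdga2, Sybu, Rgs6, Mef2c and Gm42418 in Het lay below every WT animal, Phf21a and Thsd7a above every WT animal, and Ntng1 was highest in Het 1 at 69.9 CPM.

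Genes of cortical layer identity held 1 called gene. Mef2c, a MADS-box transcription factor of maturing cortical neurons (chr13:83504034-83667080, + strand), was at 360, 347 and 341 CPM in WT and at 292, 266 and 296 CPM in Het. All Het animals were below all WT animals. The fitted change was -0.28 (SE 0.045, edgeR adjusted p = 0.00832), KO against WT was -0.20, and GABAergic Mef2c was at 0.06 (SE 0.048). Of 26 layer genes tested, 0 were called higher and 1, Mef2c, called lower, beside 0.178% of all genes called. Fitted changes were above 0 for 11 and below 0 for 15, with a list median of -0.02. The upper-layer factor Cux2 was at 0.19 (SE 0.045, adjusted p = 0.105), Rorb of thalamus-receiving neurons at -0.28 (SE 0.071, adjusted p = 0.149) and Fezf2 of subcerebral neurons at -0.21 (SE 0.057, adjusted p = 0.186), none called. Of 21 genes of intermediate progenitors and newborn neurons, Unc5d alone was called, and of 19 progenitor and radial glia genes none was.

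Axon guidance receptors and ligands held 2 genes called higher of 45 tested and 0 called lower, beside 0.178% of all genes called. Fitted changes were above 0 for 29 and below 0 for 16, with a median of 0.04. Unc5d, a receptor for netrins and FLRT proteins that marks newborn neurons of the subventricular zone (chr8:28646717-29219636, - strand), was at 2213, 2777 and 2407 CPM in WT and 2591, 3230 and 2617 CPM in Het. Each Het animal was above its WT partner, but replicate 2 was high in both genotypes and the ranges overlapped. The log2 fold change was 0.20 (SE 0.030, edgeR adjusted p = 0.00297), just past the limit, and KO against WT was 0.31. Ntng1, netrin-G1 (chr3:109780040-110144011, - strand), was at 25.1, 18.3 and 20.9 CPM in WT and 69.9, 20.6 and 28.9 CPM in Het. Het 1 stood apart from the other 5 animals, and without replicate 1 the edgeR adjusted p was 0.152. The fitted change of Ntng1 was 0.75 (SE 0.147, adjusted p = 0.0338), whereas KO against WT was -0.06. Het 1 also stood apart in Tcf7l2, a thalamic marker, at 54.9 CPM against 13.5 to 22.7 CPM, and the part of such nuclei in the Ntng1 result was not tested. Plxna4 and Robo2, receptors for semaphorins and slits, passed the edgeR adjusted p (0.0241 and 0.0338) at log2 changes of 0.16 and 0.15, under the limit.

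Nuclear factors that rose included Phf21a, a subunit of the LSD1-CoREST complex that reads unmethylated histone H3 (chr2:92093117-92364666, + strand). It was at 577, 595 and 583 CPM in WT and 669, 718 and 618 CPM in Het, with all Het animals above all WT animals. The log2 fold change of Phf21a was 0.21 (SE 0.040, edgeR adjusted p = 0.0338), that of KO 0.47, and that of GABAergic sums 0.12 (SE 0.042, adjusted p = 0.735). Phf21a was the 1 called gene of 15 SIN3, LSD1-CoREST and REST corepressor genes, whose median was 0.06, beside 0.178% of all genes called. It was also the 1 called gene of 15 tested genes that the study names at this age, with a median of 0.06, a list drawn from these same samples and so not independent evidence of its direction. Dach1 (0.26, SE 0.046) and Pbx3 (0.28, SE 0.055), transcription factors of the DACH and PBX families, and Msi2 (0.22, SE 0.044), an RNA-binding protein, also rose, with edgeR adjusted p of 0.0188, 0.0338 and 0.0338. In these 3 genes the Het animals were above the WT animals of their number in all 3 pairs, with overlapping ranges. Dach1, for example, was at 314, 249 and 234 CPM in WT and at 343, 305 and 289 CPM in Het.

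Further genes rose that belong to none of these groups. Thsd7a, a membrane protein with thrombospondin repeats, was at 177, 156 and 183 CPM in WT and 184, 208 and 232 CPM in Het, so that every Het animal was above every WT animal, Het 1 only narrowly. Its log2 fold change was 0.29 (SE 0.058, edgeR adjusted p = 0.0338). Fign, the microtubule-severing ATPase fidgetin, rose by 0.34 (SE 0.068, adjusted p = 0.0382). Its groups did not overlap, but Het 3 (57.04 CPM) and WT 1 (56.99 CPM) were nearly equal. Galntl6, of the family that starts mucin-type glycans, rose by 0.33 (SE 0.055, adjusted p = 0.00849). The lincRNA 4930467D21Rik rose by 0.63 (SE 0.087, adjusted p = 0.00178), from 29.9, 15.3 and 23.1 CPM in WT to 39.97, 28.4 and 33.6 CPM in Het. For Galntl6 and 4930467D21Rik each Het animal was above its WT partner while the groups overlapped. KO against WT was 0.32 for Thsd7a, 0.13 for Fign, 0.19 for Galntl6 and 0.47 for 4930467D21Rik.

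Other genes that fell have roles in glycosylation, lipid and energy metabolism, the matrix and protein folding. Mgat4c, an N-acetylglucosaminyltransferase, was at 263, 251 and 300 CPM in WT and 231, 150 and 242 CPM in Het, without overlap, with a log2 fold change of -0.40 (SE 0.070, edgeR adjusted p = 0.0149). Pisd, which makes phosphatidylethanolamine in mitochondria, was at -0.38 (SE 0.066, adjusted p = 0.0149). Ckb, brain creatine kinase, was at -0.35 (SE 0.070, adjusted p = 0.0392) and Ccbe1, a secreted matrix protein, at -0.34 (SE 0.069, adjusted p = 0.0394). Both were without overlap, Ckb only narrowly (32.2 CPM in Het 1, 32.6 CPM in WT 2). Hsp90aa1, the inducible HSP90 chaperone, was at 149, 198 and 177 CPM in WT and 122, 155 and 156 CPM in Het, with a log2 fold change of -0.26 (SE 0.051, adjusted p = 0.0338). It was the 1 called gene of 8 genes of nuclear RNA and stress response tested, beside 0.178% of all genes called. Among the others, Hspa8 stood at -0.23 (SE 0.055, adjusted p = 0.103) and the long noncoding RNA Meg3 at -0.18 (SE 0.038, adjusted p = 0.0555). KO against WT was -0.59 for Mgat4c, -0.31 for Pisd, -0.39 for Ckb, -0.29 for Ccbe1 and -0.42 for Hsp90aa1.

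Slc15a2 and Gm42418 were called in both classes. Slc15a2, the proton-coupled oligopeptide transporter PEPT2 (chr16:36750177-36784962, - strand), was at 52.3, 27.7 and 107 CPM in glutamatergic WT sums and 19.2, 19.6 and 43.9 CPM in Het. It differed widely between WT animals, and Het 3 lay within the WT range, but each Het animal was below its WT partner. The log2 fold change was -1.08 (SE 0.109, edgeR adjusted p = 3.5e-05), whereas KO against WT was 0.24. In GABAergic sums Slc15a2 was at 21.2, 6.10 and 45.4 CPM in WT and 4.36, 3.32 and 15.5 CPM in Het, again below its partner in every pair, with a log2 fold change of -1.61 (SE 0.154, adjusted p = 0.00049) and KO at 0.27. In glutamatergic sums of run 1 and run 2 taken alone its values were -1.19 and -1.05.

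Gm42418 is annotated as a lincRNA at chr17:39846958-39848788 on the + strand, overlapped on the other strand by AY036118, and the locus is known to collect reads of ribosomal RNA. In glutamatergic sums it was at 1667, 1867 and 2057 CPM in WT and 1210, 1390 and 1304 CPM in Het, without overlap, with a log2 fold change of -0.50 (SE 0.038, edgeR adjusted p = 6.3e-07) and KO at -0.31. GABAergic sums held 1426, 1600 and 1858 CPM in WT and 1008, 1274 and 1160 CPM in Het, also without overlap, at -0.48 (SE 0.051, adjusted p = 0.0011) and KO at -0.22. AY036118 itself was at 4.78, 3.41 and 6.25 CPM in glutamatergic WT sums and 3.77, 3.25 and 5.44 CPM in Het, and at 4.74, 3.72 and 5.86 CPM in GABAergic WT sums and 3.10, 3.26 and 4.12 CPM in Het. It too was lower in Het in each of the 6 pairs, with overlapping ranges.

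Some called genes fell outside the rule for genes named in full and were singled out after their values were seen. Tuba1a, the alpha-tubulin of migrating neurons, was at -0.22 (SE 0.044, edgeR adjusted p = 0.0338) and Hs3st5, a heparan sulfate sulfotransferase, at -0.25 (SE 0.052, adjusted p = 0.0461). Both were without overlap, Tuba1a only narrowly (509 CPM in Het 3, 511 CPM in WT 1). Tuba1a has near-identical paralogues, and reads could be shared among them. At low levels, the transporter Abca8a was at 8.24, 5.44 and 7.47 CPM in WT and 4.02, 3.66 and 3.72 CPM in Het (adjusted p = 0.0366), and the carboxylesterase Ces3b at 1.08, 0.852 and 0.893 CPM against 1.76, 2.03 and 3.81 CPM (adjusted p = 0.0374). The lincRNA Gm49678 was at -0.54 (SE 0.112, adjusted p = 0.0492).

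Foxa1, 1700025A08Rik and Gm9870 were called in both classes on counts that WT 1 and WT 2 held for the most part. Foxa1, a forkhead factor of ventral midline cells, had 14, 20 and 0 counts in glutamatergic WT sums and 0 in each Het sum, at least 9.86-fold lower against a floor of 3 counts over the group. In GABAergic sums it had 40, 46 and 1 counts in WT and 0, 0 and 2 in Het, a ratio of 42.0 (95% counting interval 11.3 to 352). In glutamatergic sums 1700025A08Rik had 14, 21 and 0 counts in WT against 0 in each Het sum, and Gm9870 had 14, 29 and 3 against 0, 3 and 1. WT 3 lay with the Het animals in all 3 genes, so their groups overlapped or touched.

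The runs, taken alone, gave the same directions for the called genes that could be tested in them in glutamatergic sums. In run 1, with 3262 to 5757 nuclei kept per library of WT and Het, edgeR called 1 gene, Slc15a2, and in run 2, with 14209 to 22487, it called 16. Values in run 1 and run 2 were -0.20 and -0.28 for Mdga2, -0.17 and -0.35 for Sybu, -0.19 and -0.27 for Rgs6, -0.23 and -0.25 for Mef2c and -0.52 and -0.29 for Grm5. Among genes that rose they were 0.23 and 0.19 for Phf21a, 0.42 and 0.23 for Thsd7a and 0.46 and 0.80 for Ntng1. Levels differed between the runs, and Sybu, for example, lay at 94.0 to 188 CPM in run 1 and at 219 to 308 CPM in run 2. The summed changes of Mdga2, Sybu, Rgs6 and Mef2c (-0.31, -0.37, -0.30 and -0.28) were larger in size than those of either run alone. With equal run shares they were -0.28, -0.33, -0.27 and -0.25, with edgeR adjusted p of 0.0071, 0.0187, 0.0231 and 0.103. Unc5d, at 0.20 in the sums, was at 0.16 (adjusted p = 0.174) with equal run shares, and Grin3a at -0.63 (adjusted p = 0.0519). Within run 1 alone the WT and Het animals of Sybu overlapped, and within run 2 they did not.

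Single pairs of animals decided several calls. Slc15a2, Gm42418, Mdga2, Sybu, Rgs6, Grin3a, Galntl6 and 4930467D21Rik were called by edgeR whichever replicate number was left out. Without replicate 2 the adjusted p was 0.0948 for Mef2c, 0.0834 for Grm5, 0.143 for Mgat4c, 0.209 for Pisd, 0.249 for Thsd7a, 0.353 for Fign, 0.114 for Dach1 and 0.282 for Hsp90aa1. Without replicate 1 it was 0.151 for Pbx3. Unc5d was under the fold limit without replicate 1 (0.18) and without replicate 2 (0.19), and Phf21a was at 0.19 without replicate 1 and at 0.17 (adjusted p = 0.228) without replicate 2. Msi2, Ccbe1, Tuba1a and Gm49678 also lost their calls without replicate 1 and without replicate 2, Gm49678 without replicate 3 as well. Ckb and Ces3b lost theirs without replicate 2 and without replicate 3, Abca8a without replicate 1 and without replicate 3, and Hs3st5 without replicate 2. The called genes that were tested kept their direction in each of these. Of the 31 called genes 23 overlap another annotated gene, and the sources used here do not say whether counting was stranded.

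GABAergic neurons gave fewer calls in Het. Of 19403 genes tested, 7 (0.0361%) were called, 0 (0%) higher and 7 (0.0361%) lower, and 1214 had an unadjusted p under 0.05. That all were lower depended on the setting, since 39 genes were higher and 35 lower without replicate 3, 4 and 4 without replicate 2, 12 and 9 with no upper limits on UMIs and genes, and 51 and 56 with no filter on low counts. With equal run shares 5 were called, all lower. Run 1 had given 30.9% and 36.3% of the counts of Het 2 and Het 3 against 23.98% and 22.6% in WT 2 and WT 3. In replicate 1 it had given 21.4% in Het and 27.1% in WT. The 7 genes called of 19403 were Slc15a2, Gm42418, Foxa1, 1700025A08Rik and Gm9870, already described, and Xist and its antisense RNA Tsix. Only WT 3 carried Xist and Tsix above 1.05 CPM. With equal run shares Gm9870 was not called and Tsix was not tested. In 2 of the 7, Gm42418 and Xist, Het animals lay apart from WT animals, beside 7.44% of all genes, a share that again uses the same contrast. Without the replicate block edgeR called 0 genes (399 at an unadjusted p under 0.05), and DESeq2 with the block called 0 (176 at an unadjusted p under 0.05). KO against WT, in the fit of all 9 animals, called 37 of 19841 genes in GABAergic and 563 of 17874 in glutamatergic sums.

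Among GABAergic genes higher in Het and above 20 CPM, the 5 with the lowest p were not called. Dab1, the reelin adaptor of migrating neurons, was at 419, 311 and 347 CPM in WT and 463, 375 and 444 CPM in Het, a value of 0.28 (SE 0.047, edgeR adjusted p = 0.0748). Synpr, synaptoporin of synaptic vesicles, was at 33.4, 36.4 and 34.6 CPM in WT and 38.1, 47.4 and 47.8 CPM in Het, at 0.37 (SE 0.066, adjusted p = 0.112). Cacna2d3, an auxiliary calcium channel subunit, was at 0.23 (SE 0.040, adjusted p = 0.112), Fstl4 at 0.40 (SE 0.075, adjusted p = 0.144) and the secreted Tafa1 at 0.29 (SE 0.055, adjusted p = 0.144). Het animals lay above all WT animals for Synpr, Cacna2d3 and Fstl4, and overlapped them for Dab1 and Tafa1.

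The Het change itself was compared between the classes within the same animals. Of 19917 genes 0 (0%) had an edgeR adjusted p under 0.05 for the difference, and 911 had an unadjusted p under 0.05. Sybu had a difference, glutamatergic minus GABAergic, of -0.48 (SE 0.077, adjusted p = 0.183), Grin3a of -0.78 (SE 0.142, adjusted p = 0.183), Ntng1 of 0.61 (SE 0.110, adjusted p = 0.183), Grm5 of -0.39 (SE 0.084, adjusted p = 0.383) and Mef2c of -0.35 (SE 0.077, adjusted p = 0.430). That of Mdga2 was -0.30 (SE 0.104, adjusted p = 0.955). Hs3st5 had opposite signs, -0.25 in glutamatergic and 0.50 in GABAergic sums, and a difference of -0.76 (SE 0.149, adjusted p = 0.246). So no gene was shown to respond differently in the 2 classes, although 5 of the 31 glutamatergic calls were also made in GABAergic sums and the others were not.

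**Figure D3:**
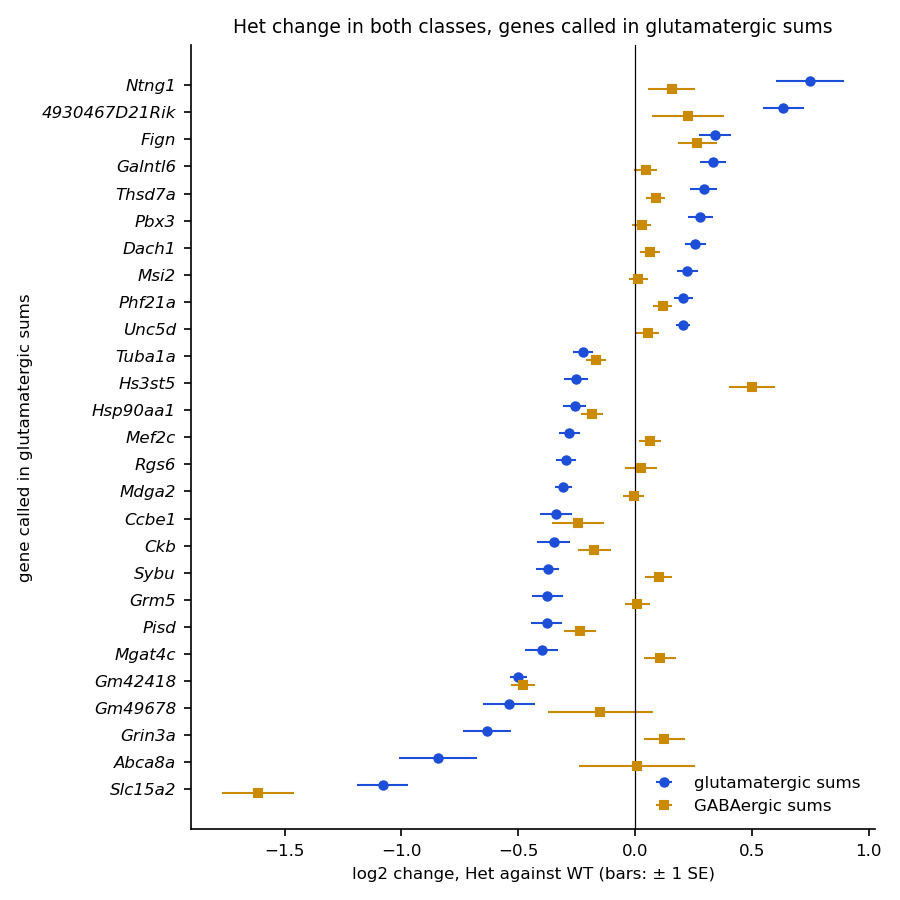
Het against WT change on the log2 scale (horizontal axis, bars ± 1 SE) in glutamatergic sums (blue circles) and GABAergic sums (yellow squares) for genes called in glutamatergic sums with a mean of at least 5 CPM. Slc15a2 and Gm42418 lay below 0 in both classes, and the GABAergic values of Mdga2, Sybu, Rgs6, Mef2c and Grm5 lay between -0.01 and 0.10, while those of Pisd (-0.24), Ccbe1 (-0.25), Hsp90aa1 (-0.18), Ckb (-0.18), Tuba1a (-0.17) and Fign (0.27), none called there, had the sign of the glutamatergic change.

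Across the gene lists the GABAergic sums held 0 called members, beside only 0.0361% of all genes called there, so nothing is read from this count. Unc13c of vesicle priming was at 0.48 (SE 0.095, edgeR adjusted p = 0.181) and Shisa9, an AMPA receptor auxiliary protein, at 0.36 (SE 0.079, adjusted p = 0.268), neither called. Medians in GABAergic sums were 0.09 for 33 glutamate receptor genes, 0.06 for 43 voltage-gated channel genes and 0.06 for 45 guidance genes. They were 0.07 for 55 adhesion and synapse organiser genes and 0.04 for 41 vesicle release genes, beside -0.006 for all genes. Other GABAergic lists were not above 0 or close to it, with -0.05 for 21 Notch genes and -0.03 for 20 progenitor and radial glia genes. Subpallial genes (38 tested) were at -0.02 and 23 genes of GABA and glycine signalling at 0.005. In glutamatergic sums the medians were -0.0007 for 42 channel genes, -0.002 for 55 adhesion genes and -0.04 for 41 vesicle genes. They were 0.004 for 23 genes of GABA and glycine signalling, -0.002 for 20 Notch genes and 0.08 for 35 subpallial genes. Each of these glutamatergic lists had 0 called, beside 0.178% of all genes called. Lrfn5 (-0.19, SE 0.035, edgeR adjusted p = 0.0210) and Ntm (0.17, SE 0.033, adjusted p = 0.0289), adhesion proteins of neurons, passed the adjusted p but not the fold limit in glutamatergic sums.

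**Figure D4:**
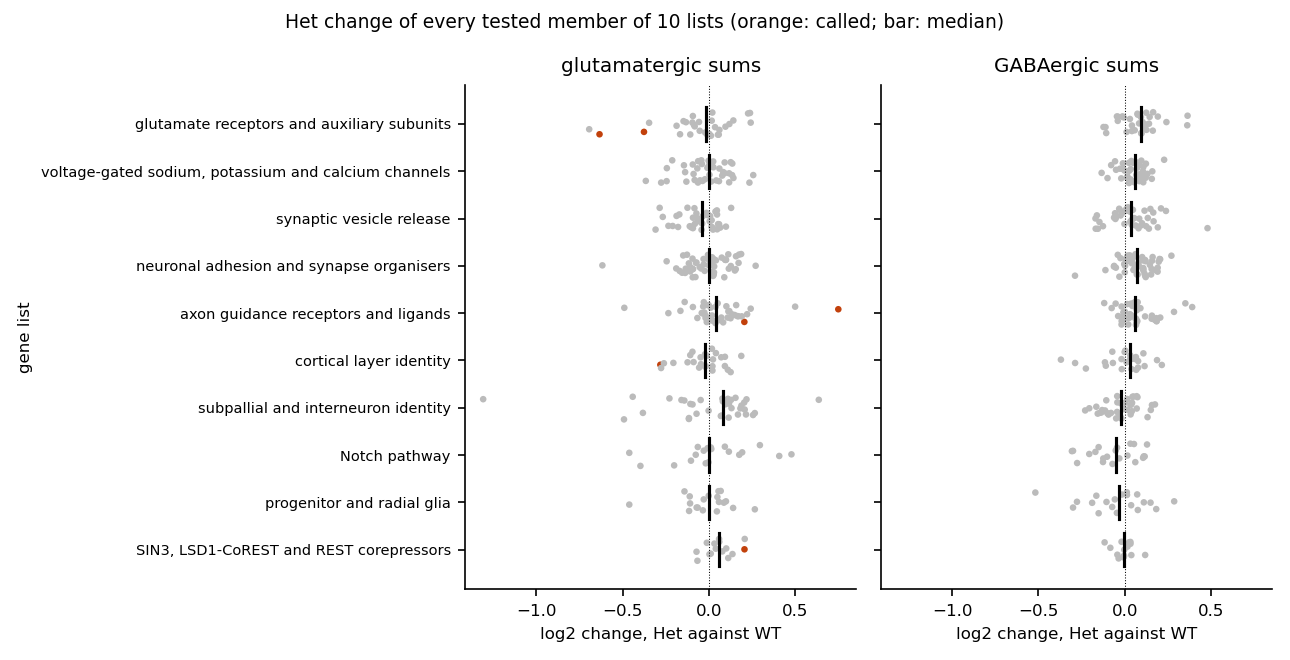
Het against WT change on the log2 scale (horizontal axis) of each tested member of 10 gene lists in glutamatergic and GABAergic sums, with list medians as black bars and called members in orange. The glutamate receptor list had a median of -0.02 in glutamatergic and 0.09 in GABAergic sums. Called members were found in glutamatergic sums only, among them Grin3a and Grm5 below 0 and Unc5d, Ntng1 and Phf21a above 0. Of all genes tested, 0.178% were called in glutamatergic and 0.0361% in GABAergic sums.

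Summed levels of markers of other cells had overlapping ranges in WT and Het. In the glutamatergic sums the 12 microglia and macrophage markers together made up 7.67 to 10.6 CPM in WT and 7.56 to 10.1 CPM in Het. The 13 vascular and meningeal markers made up 8.98 to 14.7 CPM in WT and 9.83 to 18.1 CPM in Het, the 10 Cajal-Retzius markers 198 to 302 CPM and 229 to 308 CPM, and the 7 oligodendrocyte progenitor markers 243 to 329.5 CPM and 245 to 405 CPM. The 11 diencephalic markers together were at 696, 702 and 609 CPM in WT 1, 2 and 3 and 775, 748 and 664 CPM in Het 1, 2 and 3, higher in Het in all 3 pairs. The vascular sums were also higher in all 3 pairs and the microglia sums lower. Such sums follow their most abundant members and are no count of the cells named. In GABAergic WT 1, Foxp2, which the layer and subpallial lists also hold, made up 959 of the 1000 CPM of the diencephalic sum. Lhfpl3 made up 377 of the 383 CPM of the oligodendrocyte progenitor sum there. In glutamatergic sums Tcf7l2 and Lhx9 of the diencephalic list were at 13.5 to 54.9 CPM and 25.7 to 40.7 CPM. Of 9 red blood cell markers, together at 9.51 to 13.4 CPM, Hbb-bh1 was at 0 in all 6 animals. Medians of the tested members in glutamatergic sums were 0.33 for oligodendrocyte progenitor markers (4 of 4 higher in Het), 0.27 for Cajal-Retzius markers (8 of 9 higher) and 0.11 for diencephalic markers (4 of 5 higher), beside -0.003 for all genes, and -0.18 for microglia (1 of 5 higher), -0.008 for vascular (3 of 7) and 0.007 for red blood cell markers (2 of 4). None of these lists had a called member in either class, beside 0.178% of all genes called in glutamatergic and 0.0361% in GABAergic sums. The part of such nuclei in the results was not tested. In GABAergic sums too, Het 1 alone was high in the diencephalic marker Tcf7l2 (67.1 CPM against 16.5 to 24.7 CPM), and it alone was high there in the Cajal-Retzius marker Lhx1 (8.41 CPM against 0.509 to 1.01 CPM). The diencephalic sums cannot show whether Het 1 held more such nuclei, since Foxp2 dominates them. In GABAergic sums the list was at 987 CPM in Het 1 and 1000 to 1218 CPM in the other animals. Foxp2 alone was at 896 CPM in Het 1 and 959 to 1185 CPM in the others. Lhx9 of the same list was highest in Het 1, at 9.01 CPM against 2.54 to 5.14 CPM. In glutamatergic sums Het 1 had the highest diencephalic sum, 775 CPM. The GABAergic Cajal-Retzius sum of Het 1 was 464 CPM, beside 462 CPM in WT 1.

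The share of nuclei in each class did not separate the genotypes. Glutamatergic nuclei were 12.5%, 16.6% and 17.9% of kept nuclei in WT 1, 2 and 3 and 10.7%, 17.9% and 16.4% in Het 1, 2 and 3. The means were 15.68% ± 2.83 and 15.01% ± 3.79 (SD, n = 3 each), a difference of -0.669 percentage points (exact two-sided permutation test, p = 0.7, smallest possible 0.1). Paired by number, 2 of 3 Het animals were lower (exact sign-flip test, p = 0.5, smallest possible 0.25). Leaving out 1 replicate number gave -0.123, -1.64 and -0.246 points without replicate 1, 2 and 3. GABAergic nuclei were 27.4%, 28.9% and 27.3% in WT and 27.0%, 27.6% and 28.7% in Het, with means of 27.9% ± 0.923 and 27.8% ± 0.896 (SD, n = 3 each), a difference of -0.0949 points (exact two-sided permutation test, p = 0.9). With each nucleus thinned to 1500 UMIs, which left out 1690 to 6778 shallower nuclei per animal, glutamatergic shares were 7.34%, 8.42% and 9.73% in WT and 6.03%, 8.32% and 8.26% in Het. The difference was -0.960 points with all 3 pairs lower (exact permutation test p = 0.4, exact sign-flip test p = 0.25, the smallest possible).

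**Figure D5:**
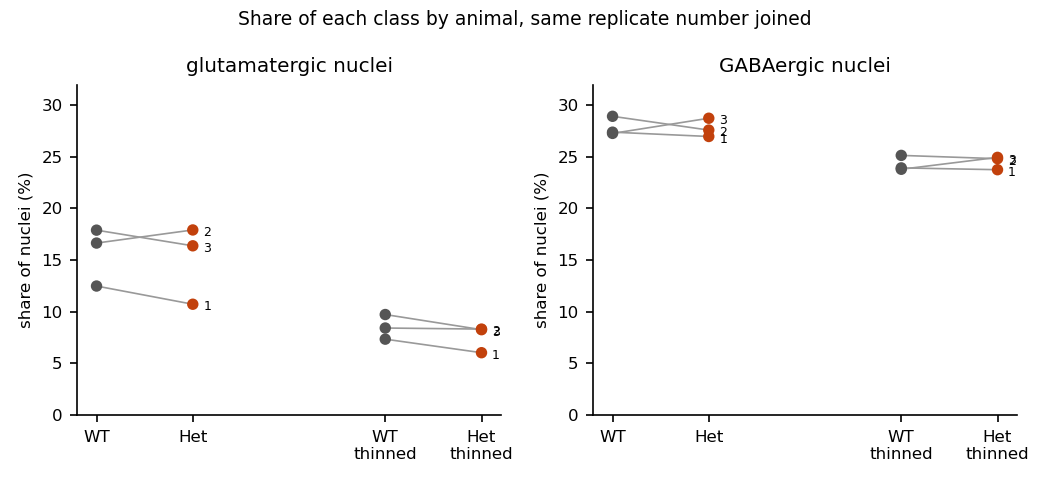
Share of kept nuclei (percent, vertical axis from 0) that were glutamatergic or GABAergic in each of the 3 WT (grey) and 3 Het (orange) animals, before and after thinning to 1500 UMIs, with lines joining equal replicate numbers. Replicate 1 had the lowest glutamatergic share in both genotypes, 12.5% and 10.7%, and the WT and Het values overlapped in both classes.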

How the data were processed

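Nuclei of the E14 forebrain were measured in 18 libraries, and the 12 libraries of WT and Het animals carry the comparisons. The deposited matrices hold estimated counts (expected counts) of UMIs per gene and nucleus for 55335 genes, made by the authors by mapping to mm10 with the kit maker's pipeline, which also called the nuclei. Per library 6.70% to 8.71% of entries were not whole, so counts were summed per animal and class and then rounded. The sources used here name neither the annotation release nor the use of strand in counting. Nuclei were kept with 800 to 6000 UMIs, 300 to 3000 genes and at most 1% mitochondrial counts.

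Genes were tested with edgeR 4.0.16 (R 4.3.3; filterByExpr, TMM, glmQLFit, glmQLFTest) with genotype and replicate number, and Benjamini-Hochberg adjustment over all genes tested. The difference between classes was tested with the animal as a block over 12 class sums. Calls needed an adjusted p under 0.05 and, for genotype, a log2 change beyond 0.2. The study's own model was DESeq2 (1.38.3 in the submitters' processing notes) with no block, run here with DESeq2 1.42.0 as an alternative. Deviations from the genotype means correlated at 0.247, 0.142 and 0.129 between glutamatergic sums of equal number (0.271, 0.225 and 0.114 in GABAergic sums) and at most at 0.0297 otherwise. Since deviations cancel out within a genotype, positive values at equal numbers push the others down, which are thus no added evidence. Numbers were taken to pair the animals, as a hint from the data and not from the labels. Nothing states that equal numbers share a litter.

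Genes named in full were the called genes, up to 12 per direction of at least 20 CPM, outside the gate and sex-linked genes, with 5 per direction of lowest p where fewer than 10 were called, the MYT1 family, and up to 4 members of lowest p per list. Members, lists and the block were chosen with earlier results of these data known. The scripts were tested on simulated data. Alternatives were the block, DESeq2, KO animals in the fit, RLE scaling, no filter, each replicate left out, each run, the nucleus limits and the gate (of which 1 alternative is not reported here), and, added after seeing the data, no shared barcodes, no nuclei with counts of 6 progenitor genes, run 1 counts thinned (binomially) to the lowest run 1 share among the 6 animals, and thinned shares. Summaries used Python 3.11.15, pandas 2.3.3, scipy 1.17.1 and matplotlib 3.10.9. Intervals and floors cover counting error only.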

Additional observations from a re-analysis of the deposited data

How the results depend on the processing

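The calls depended on the replicate block, and fewer were made with equal run shares, a setting that changes the mix of runs and also lowers the counts. Against 31 glutamatergic and 7 GABAergic genes with the block, edgeR without it called 0 and 0, also with KO animals added (0 and 0), and with KO animals and the block 5 and 1. DESeq2 called 17 and 0 with the block, and 2 and 0 without it. Of the 31, DESeq2 with the block called 14, and Grm5 and Mgat4c were not called, while the rest had no adjusted p (Slc15a2 and Grin3a among them). With no filter on low counts 112 and 107 genes were called. Leaving out 1 replicate gave 0 to 121 and 0 to 74 calls, with 72, 18 and 121 glutamatergic calls without replicate 1, 2 and 3 and the zeros all in fits without the block. Run 1 alone gave 1 and 2 calls and run 2 alone 16 and 4, no upper limits on UMIs and genes 14 and 21, an upper limit of 4000 UMIs 2 glutamatergic calls, and a gate of at least 3 counts 3 GABAergic calls. Leaving out nuclei with counts of Eomes, Neurog2, Hes5, Sox2, Mki67 or Top2a, chosen after seeing the data, gave 25 (15 higher and 10 lower) and 8 calls. Equal shares of run 1 counts, also chosen after seeing the data, left 9 glutamatergic and 5 GABAergic calls. RLE scaling, the 0.9 limit on the log ratio and the set without shared barcodes gave 30, 23 and 26 glutamatergic and 7, 7 and 6 GABAergic calls. For the difference between classes 85 genes were called with no filter, and 0 to 7 with 1 replicate left out (Grin3a, Kirrel3, Hs3st5, Lrrtm3, Mgat4c, Mef2c and Sybu without replicate 1). The difference in GABAergic share was -1.11 points in run 1 alone and -0.876 to 0.525 points with 1 replicate left out, and that in glutamatergic share -1.64 to -0.123 points. The causes were not tested, apart from fewer nuclei or animals where an alternative leaves them out.

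Of 979 values of 39 single genes under alternatives, 539 kept direction and side of the threshold, 414 lost the call, 15 gained one and 11 turned in sign. Those that turned were St18 in glutamatergic sums without WT 2 (-0.039), without Het 1 (-0.0043) and in run 2 (-0.00080), St18 in GABAergic sums with 1 replicate left out (from -0.020 without replicate 1 to 0.085), without Het 1 (-0.0033), in run 1 (-0.021), without upper limits (-0.021) and with equal run shares (-0.0034), Tafa1 in GABAergic sums without Het 1 (-0.041), and Myt1 in GABAergic sums without Het 2 (-0.028) and without upper limits (-0.0019), none called. Depth limits the rarest genes, with Foxa1 at under 50 counts per animal.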

Other observations

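Leaving out replicate 2 brought calls to Unc13c, Hs3st5 and Lhx1 in GABAergic sums, and Het 1 was the highest of the 6 animals in each of the 3 (36.9 CPM of Unc13c against 14.6 to 22.4 CPM, 122 CPM of Hs3st5 against 58.9 to 74.0 CPM, 8.41 CPM of Lhx1 against 0.509 to 1.01 CPM). Het 1 was also the highest in glutamatergic Ntng1 and in Tcf7l2 of both classes.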
